A study of Mus musculus with 4 samples.

Results

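The Pth2r Calcr neurons of the mouse lateral septum (LS) were taken as the nuclei in which unique molecular identifiers (UMIs, each standing for 1 captured RNA molecule) of both Pth2r and Calcr were counted. A nucleus had to have 200 to 6000 detected genes, under 2% mitochondrial UMIs, at least 2000 UMIs in all, at least 1 UMI of Pth2r, at least 1 of Calcr, at least 1 of Gad1 or Gad2, none of Esr1 and fewer than 3 of St18. Of 48940 nuclei inside the quality and depth limits, 92 met this rule. The nuclei were thus selected on the UMI counts of these 6 genes, whose levels are given below as a description with no test.

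Pth2r encodes the parathyroid hormone 2 receptor, a class B G protein-coupled receptor whose main brain ligand is the neuropeptide TIP39, the product of Pth2. Calcr encodes the calcitonin receptor, another class B receptor, which binds calcitonin alone and amylin when it is paired with receptor activity-modifying proteins (Ramp1, Ramp2, Ramp3). Both receptors couple mainly to stimulatory G proteins and cyclic AMP. The LS is made up largely of GABAergic projection neurons, which receive hippocampal input and send axons to the hypothalamus and midbrain.

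The nuclei came from 4 single-nucleus libraries of LS tissue, prepared with 10x Genomics 3' chemistry from pooled male mice aged 6 to 8 weeks. They covered 2 genetic backgrounds in 3 groups, the C57BL/6JNifdc mice (C57J, 2 libraries), the BALB/c nude mice (nude, 1 library), which lack T cells and are on the BALB/c background, and the BALB/c mice (1 library). C57J 1 was prepared in batch 1, and C57J 2, nude and BALB/c in batch 2. Because mice were pooled and nude and BALB/c have 1 library each, spread between animals could not be measured, and a difference between nude and BALB/c mice has no replicate check.

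The libraries C57J 1, C57J 2, nude and BALB/c held 102939576, 72912922, 82169638 and 125998527 UMIs, and 13581, 11191, 12251 and 11917 of their nuclei stayed inside the limits. They gave 20, 23, 25 and 24 Pth2r Calcr nuclei, whose summed counts were 187952, 195751, 213932 and 307455 UMIs. Members from BALB/c mice were the most deeply sequenced, with a median of 10833 UMIs per nucleus, against 7944 in C57J 1, 8057 in C57J 2 and 7297 in nude. The depth of single members ran from 2934 to 24210 UMIs. Between 17 and 43 cell barcodes were shared by each pair of libraries.

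Markers of LS neurons were detected in most of the nuclei. Trpc4, a cation channel gene that marks LS neurons, was detected in 91 of the 92 nuclei, the diacylglycerol kinase gene Dgkg in 89 and the septal transcription factor gene Zic1 in 64. These 3 LS markers summed to 1654 CPM (UMIs of a gene per 1000000 UMIs of all genes in the summed nuclei, as a mean of the 4 libraries) in the members and to 1745 CPM in nuclei without either receptor that were required to have Trpc4, with C57J 2 members the lowest at 1088 CPM. Slc32a1, the vesicular GABA transporter gene outside the rule, was detected in 37. The glutamate transporter gene Slc17a6 had 2 UMIs in all members together and Slc17a7 had 0. Of the 7 oligodendrocyte markers all were detected, with a summed level of 373 CPM, against 403 CPM in those receptor-negative nuclei. Astrocyte markers summed to 359 CPM in the members, led by Slc1a2, against 609 CPM in the receptor-negative nuclei. The 3 medial septal markers summed to 90.4, 184, 32.7 and 42.3 CPM in C57J 1, C57J 2, nude and BALB/c, led by Elavl2, with a mean of 87.3 CPM against 164 CPM in the receptor-negative nuclei, and the ependymal marker Fam216b was at 0. The 8 striatal markers summed to 947, 715, 818 and 1083 CPM, with 1 of the 8 at 0, and their mean was 891 CPM against 695 CPM in the receptor-negative nuclei. The striatal sum was led by Pde10a, at 752 CPM in the members and 506 CPM in the receptor-negative nuclei. The part of these other markers in the results below was not tested.

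Detection of either receptor rested on few molecules. Pth2r (ENSMUSG00000025946, GRCm38 chromosome 1, 65282056 to 65389244, plus strand) had 30, 46, 38 and 47 UMIs in the members of C57J 1, C57J 2, nude and BALB/c, which were 159.6, 235.0, 177.6 and 152.9 CPM. Calcr (ENSMUSG00000023964, GRCm38 chromosome 6, 3685680 to 3764714, minus strand) had 59, 45, 45 and 84 UMIs, which were 313.9, 229.9, 210.3 and 273.2 CPM. Neither receptor was ordered by background in these sums. Pth2r was seen as 1 UMI in 57 nuclei, 2 in 17 and 3 or more in 18, with at most 6. Calcr was seen as 1 UMI in 46 nuclei, 2 in 13 and 3 or more in 33, with at most 19 in a BALB/c nucleus. In 25 nuclei each receptor had exactly 1 UMI, and 11 of these 25 were from nude mice. In 14 nuclei both receptors had at least 2 UMIs, namely 4 in C57J 1, 5 in C57J 2, 5 in BALB/c and 0 in nude.

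**Figure D1:**
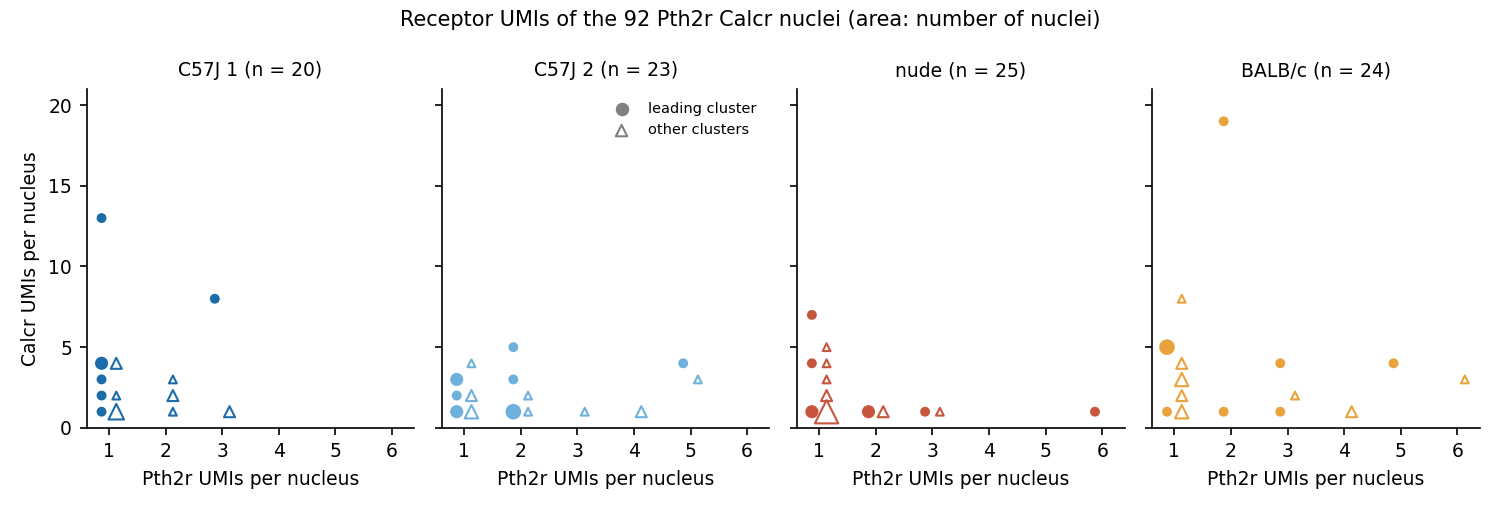
UMIs of Pth2r (x axis) and Calcr (y axis) in each of the 92 nuclei, by library, with marker area in proportion to the number of nuclei at that point. Filled circles are nuclei of the leading expression cluster and open triangles are all others, and most points lie at 1 or 2 UMIs of each receptor, with the highest Calcr count, 19, in BALB/c.

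Close to the limits of the rule, 9 nuclei with both receptors were left out for Esr1, 7 of them with exactly 1 UMI of it, 14 were left out for St18 and 4 for the absence of Gad1 and Gad2. Inside the limits, 34 members had 1 or 2 UMIs of St18 and 9 had exactly 1 UMI of Gad1 and Gad2 together. Predicted doublets made up 14 of the 92 nuclei (15.2%), against 11.5% of nuclei with Calcr alone, 11.1% with Pth2r alone and 9.59% of Trpc4-positive nuclei with neither, and they were kept, since the rule has no doublet step.

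Free RNA can give a nucleus a UMI of a gene it does not express, so detection was set beside oligodendrocyte nuclei at an equal depth of 2000 UMIs. Among 1268 oligodendrocyte nuclei (median 3188 UMIs before thinning), 0.473% had a UMI of Pth2r, 0.789% of Calcr and 0 had both, which allows a share of up to 0.237%. Among 42472 nuclei with Gad1 or Gad2 (median 6832 UMIs), 1.57% had Pth2r, 1.43% had Calcr and 18 nuclei, 0.0424%, had both. These shares pool the nuclei of 4 libraries and are a description with no test, and the joint share in the GABAergic nuclei lay below the limit that 0 allows in the oligodendrocyte nuclei. In C57J 2 the thinned Calcr shares were close, at 1.66% and 1.52%. Before thinning, Pth2r was in 4.12% and Calcr in 3.35% of the GABAergic nuclei, and in 0.710% and 1.03% of the oligodendrocyte nuclei.

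Since the rule used both receptors, their joint detection is given as a description with no test. Inside the other limits of the rule, 92 of 1465 Pth2r-positive nuclei had Calcr (6.28%), against 1036 of 34496 Pth2r-negative nuclei (3.00%). Calcr was found in 5.85% of Pth2r-positive and 2.22% of Pth2r-negative nuclei of C57J 1, 7.52% and 3.35% in C57J 2, 5.63% and 3.94% in the nude library, and 6.43% and 2.59% in the BALB/c library. At 2000 UMIs the shares were 3.56% (16 of 450) and 1.44% (390 of 27073), and in C57J 1 they were close, at 1.06% (1 of 94) and 0.924% (74 of 8007). Inside the expression cluster that held the most members, they were 10.1% (35 of 345) and 8.17% (104 of 1273) with all UMIs, and in nude the order was turned, at 7.48% and 8.95%.

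Whether the share of Pth2r Calcr nuclei differs between C57J mice and nude or BALB/c mice was asked next. With all UMIs, the members made up 0.164% (20 of 12181, exact Clopper-Pearson 95% interval 0.100 to 0.253, for counting error only), 0.247% (23 of 9294, 0.157 to 0.371), 0.231% (25 of 10841, 0.149 to 0.340) and 0.236% (24 of 10156, 0.151 to 0.351) of the Gad1 or Gad2 nuclei of C57J 1, C57J 2, nude and BALB/c. Thinned to 2000 UMIs, only 1 of 8800, 4 of 6416, 7 of 7839 and 4 of 6808 such nuclei met the rule, which were 0.0114%, 0.0623%, 0.0893% and 0.0588%. The thinned share was highest in nude and lowest in C57J 1, and all 4 intervals overlapped. The log2 ratio to the mean of the C57J shares was 1.28 for nude and 0.67 for BALB/c after thinning, and 0.16 and 0.20 with all UMIs. Without C57J 1, which is batch 1, the thinned ratios fell to 0.52 and -0.086, and without C57J 2 they were 2.97 and 2.37. A difference between the groups was not detectable at this depth, and with 2 libraries against 2 the exact permutation test, two-sided, cannot give a p below 0.333.

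**Figure D2:**
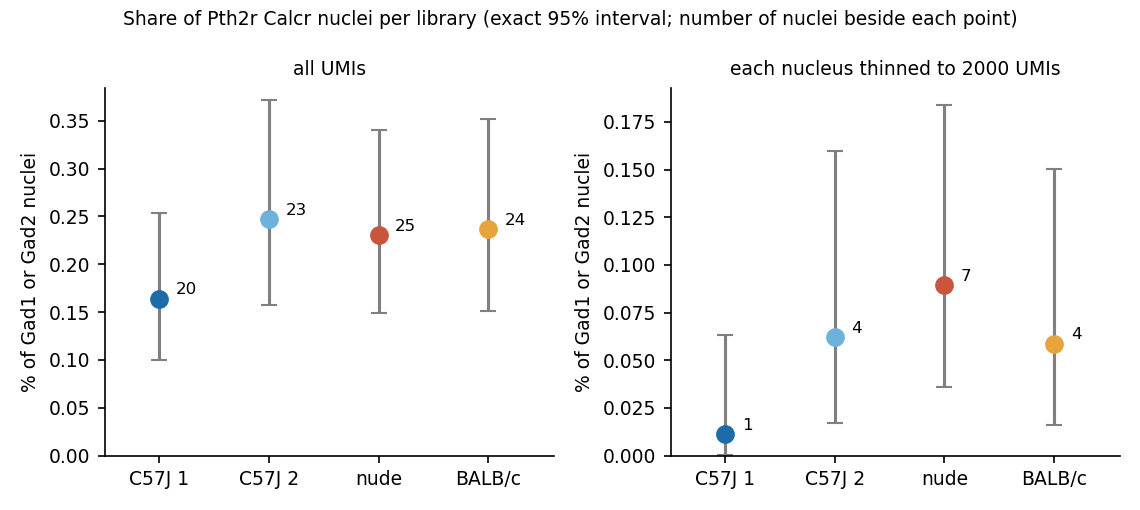
Share of Gad1 or Gad2 nuclei that met the rule (y axis, percent) in each library, with all UMIs and after thinning to 2000 UMIs; bars are exact 95% intervals for counting error and the numbers are nuclei. The thinned shares rest on 1 to 7 nuclei, and the intervals of the 4 libraries overlap in both panels.

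The members did not form 1 expression class. When the 42472 Gad1 or Gad2 nuclei were clustered without the 6 genes of the rule, the 92 members fell into 22 of 45 clusters, and 12 clusters held exactly 1 member. The 5 clusters with the most members held 68 of the 92 (73.9%) and 13.4% of all clustered nuclei. The clusters are numbered here by how many members they held and are left unnamed. Cluster 1 held 35 members, 7 from C57J 1, 11 from C57J 2, 8 from nude and 9 from BALB/c, among 1679 nuclei, of which 21.4% had Pth2r and 8.46% had Calcr. Its leading genes over all other nuclei included Pth2r itself, the neurexin ligand gene Nxph1 and the dopamine D3 receptor gene Drd3. Cluster 2 held 11 members of 1144 nuclei, of which 7.69% had Pth2r, 9.35% had Calcr and 40.2% had Esr1. Cluster 3 held 9 of 1508 nuclei, of which 22.2% had Calcr and 1.92% had Pth2r. Cluster 4 held 8 of only 298 nuclei, and cluster 5 held 5 of 1068. Over all clustered nuclei 4.12% had Pth2r and 3.35% had Calcr. Clusters 1 and 2 were above these shares for both receptors, as was cluster 4 (14.4% with Pth2r and 5.70% with Calcr). So were cluster 6 (7.94% and 5.47%) and cluster 7 (7.21% and 4.54%). Cluster 3 was above for Calcr only, and cluster 5 for Pth2r only (11.5% and 3.18%). Members were also close to one another, since 7.97% of their nearest neighbours were members, against 1.56% for nuclei with Calcr alone, 1.23% with Pth2r alone and 0.183% for Trpc4-positive nuclei with neither.

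**Figure D3:**
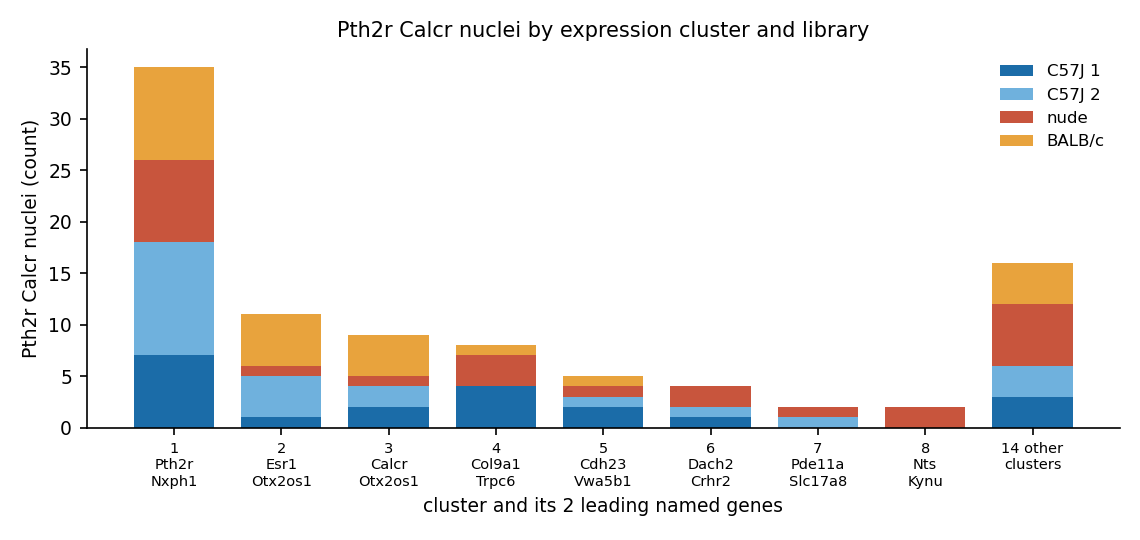
Number of Pth2r Calcr nuclei (y axis) in the 8 clusters that held the most of them and in the other clusters together (x axis), stacked by library. Cluster 1 held 35 nuclei with 7 to 11 from each library, and the next 4 clusters held 11, 9, 8 and 5.

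The members of cluster 1 differed from the other 57 in how the receptors were detected and in the genes beside them. Calcr summed to 389 CPM in the 35 nuclei and 188 CPM in the other 57, and Pth2r to 207 and 162 CPM. None of the 35 nuclei was a predicted doublet, against 14 of the other 57 (24.6%). Pooled levels of Tshz2, a zinc finger transcription factor gene of the teashirt family, were 475 and 76.1 CPM. Those of Fras1, an extracellular matrix gene, were 437 and 57.5 CPM, and those of Lypd1, a membrane-anchored modulator of nicotinic receptors, were 252 and 27.1 CPM. Tafa2, a secreted chemokine-like gene, stood at 1568 and 416 CPM, and Acvr1, a type I receptor of the activin and BMP family, at 236 and 99.8 CPM. The opposite order was seen for the cation channel gene Trpc6 (38.2 and 156 CPM), the metabotropic glutamate receptor gene Grm7 (236 and 906 CPM) and the transcription factor gene Meis2 (98.8 and 397 CPM). As the cluster was drawn from these same genes, these levels are a description with no test.

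Genes outside the rule were then compared between the members and 3 other classes held to the same Gad, Esr1 and St18 limits, namely 1036 nuclei with Calcr alone, 1373 with Pth2r alone and 24458 Trpc4-positive nuclei with neither (receptor-negative nuclei). Counts were summed per library and class, the library was kept as a block, and a gene was called where its log2 fold change passed 0.5 in either direction with an adjusted p under 0.05 (edgeR quasi-likelihood test with Benjamini-Hochberg adjustment). The median depth was 8190.5 UMIs in the members and 7076, 8184 and 7827 UMIs in the 3 classes. The 3 comparisons share the same members, so their results are given side by side and not as support for each other.

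Against nuclei with Calcr alone, the members had higher levels of Nxph1, Tafa2, Tshz2, Dgkk, Cntnap5a and Synpr, and lower levels of Reln, Oprm1, Meis2, Nfia and Nfib. Of 9329 genes tested, 117 were called (1.25%), 47 higher and 70 lower in the members. The classes were spread differently over the clusters, as cluster 1 held 35 of the 92 members and 104 of the 1036 nuclei with Calcr alone, and 9 of the 117 genes were also called when both classes were held inside cluster 1. Nxph1 measured 2815, 3167, 2791 and 3483 CPM in the members of C57J 1, C57J 2, nude and BALB/c, against 1412, 1689, 1900 and 1798 CPM (log2 fold change 0.87 ± 0.09 SE, adjusted p = 4.41071e-07). The 2 classes did not overlap for this gene, and all 4 libraries moved the same way. Dgkk, which encodes diacylglycerol kinase kappa, measured 63.8, 86.8, 46.7 and 48.8 CPM against 20.5, 29.2, 18.8 and 18.7 CPM (1.49 ± 0.26, adjusted p = 0.000608). Tshz2 measured 149, 286, 210.3 and 211 CPM against 90.0, 117, 115 and 72.5 CPM (1.16 ± 0.15, adjusted p = 1.1544e-05). Both genes were named among those that moved the same way in every library, so that agreement was required. Their values did not overlap between the classes. Tafa2 measured 638, 1144, 696 and 797 CPM against 380 to 493 CPM (0.89 ± 0.11). The other large rises were Sfta3-ps, annotated as a processed transcript (1.16), the nucleotide kinase gene Cmpk1 (1.11) and the heparan sulfate 6-O-sulfotransferase gene Hs6st3 (1.02). The SNARE regulator gene Stxbp6 (0.99), the contactin-associated adhesion gene Cntnap5a (0.95), the synaptic vesicle gene Synpr (0.95) and Lypd1 (0.91) followed.

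Among genes with at least 50 CPM in the higher class that moved the same way in every library, the largest fall in that comparison was Reln, which encodes the extracellular glycoprotein reelin, at 26.6, 10.2, 74.8 and 55.3 CPM in the members against 175 to 204 CPM (-2.11 ± 0.22, adjusted p = 4.41071e-07). Of its 40 UMIs in the members, 13 came from 1 BALB/c nucleus. Oprm1, the mu opioid receptor gene, measured 21.3, 20.4, 42.1 and 3.25 CPM against 58.2, 65.4, 81.6 and 40.4 CPM (-1.55 ± 0.31, adjusted p = 0.00282). The groups overlapped for Oprm1 across libraries, and each library's members were below its Calcr-only nuclei. The other large falls were the meiotic recombination gene Mei4 (-1.88), the transcription factor gene Dach1 (-1.53) and the corepressor gene Runx1t1 (-1.51). The number of calls was 66 by DESeq2 (33 higher and 33 lower), 45 after thinning and 48 without the library block (25 and 23). It was 56 without C57J 1, 65 without BALB/c and 169 without the filter on low counts (37 and 132). For members outside cluster 1, Dgkk, Tshz2, Synpr, Lypd1 and Tafa2 had log2 fold changes of -0.45, -0.30, -0.14, -1.04 and -0.072, so the rise of these 5 genes did not extend to the members outside cluster 1. Of all 15 genes named in this comparison, 2 kept direction and call there and 8 kept direction without the call.

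Against nuclei with Pth2r alone, the members had higher levels of Asb4, Smoc1, Pcsk5 and Trpc6, and lower levels of Ror1, Grm7 and the potassium channel subunit gene Kcnip4. Of 9835 genes tested, 143 were called (1.45%), 32 higher and 111 lower. Trpc6 measured 122, 91.95, 117 and 124 CPM against 42.7, 67.3, 67.5 and 50.4 CPM (1.01 ± 0.19, adjusted p = 0.00275). Pcsk5, a proprotein convertase gene, measured 106, 117, 112 and 104 CPM against 50.8, 40.0, 61.6 and 52.4 CPM (1.07 ± 0.18, adjusted p = 0.000961). Neither gene overlapped between the classes. Asb4, which encodes a ubiquitin ligase adaptor, measured 42.6, 15.3, 28.0 and 153 CPM against 10.4, 14.6, 10.2 and 11.3 CPM (2.44 ± 0.39, adjusted p = 0.000542). The BALB/c members were far above the others for Asb4, and 17 of its 64 UMIs came from 1 BALB/c nucleus. Other rises were Smoc1, a secreted modulator of BMP signalling (1.44), Dgkk (1.01), Cmpk1 (1.00), the tyrosine phosphatase gene Ptpn3 (0.71), Fstl4 (0.70) and the semaphorin receptor gene Plxnc1 (0.70).

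Ror1, a receptor for Wnt5a, measured 0, 20.4, 23.4 and 0 CPM in the members against 46.5 to 61.5 CPM in nuclei with Pth2r alone (-2.39 ± 0.44, adjusted p = 0.00275), with 9 UMIs in all members together. It did not overlap between the classes. Vwc2l (-1.98), the cyclic nucleotide phosphodiesterase gene Pde1c (-1.95) and Klhl1 (-1.95) fell by similar amounts. The number of calls was 94 by DESeq2 and 235 without the filter on low counts (26 higher and 209 lower). It was 86 after thinning, 78 without the library block, 55 without C57J 1 and 77 without BALB/c. For members outside cluster 1, Dgkk and Fstl4 stood at -0.98 and -0.61, and for members of cluster 1 Trpc6 stood at -0.69. Cluster 1 held 35 of the 92 members and 310 of the 1373 nuclei with Pth2r alone. With both classes held inside it, 44 of the 143 genes were also called.

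Against the receptor-negative Trpc4 nuclei, the members again had higher Nxph1, Tafa2, Tshz2, Dgkk and Pcsk5, and lower Foxp2, Meis2, Grm7 and Robo2. Of 16309 genes tested, 430 were called (2.64%), 83 higher and 347 lower. The median log2 fold change of all genes was -0.13, and with DESeq2's size factors it was -0.02 with 204 calls, of which 82 (40.2%) were higher, against 19.3% of the edgeR calls. After thinning the median was -0.41 with 243 calls, of which 16 (6.58%) were higher. Nxph1 rose by 1.27 ± 0.10 (adjusted p = 2.52232e-35), Tafa2 by 1.06 ± 0.11, Tshz2 by 1.11 ± 0.14, and Fras1 by 1.12 ± 0.14. Each of these 4 genes was higher in all 4 libraries, which their naming required, and did not overlap between the classes. Asb4 (3.21), Sfta3-ps (2.05), Dgkk (2.04), the imprinted retrotransposon-derived gene Peg10 (1.99), Smoc1 (1.39) and Pcsk5 (1.01) completed the 10 largest rises among genes with at least 50 CPM in the higher class that moved the same way in every library. Foxp2, a forkhead transcription factor gene, measured 112, 20.4, 159 and 16.3 CPM in the members against 203 to 330 CPM (-1.87 ± 0.17, adjusted p = 1.32771e-25). Its level in C57J 1 and nude members was above that in C57J 2 and BALB/c members, and 17 of 64 UMIs came from 1 C57J 1 nucleus. Robo2, a receptor for Slit guidance cues, measured 69.2, 81.7, 88.8 and 42.3 CPM against 206 to 218 CPM (-1.77 ± 0.17). Runx1t1 (-2.07), the kinase gene Hunk (-1.85) and the homeobox gene Mkx (-1.82) were the other large falls. There were 206 calls without the library block and 241 without BALB/c, and for members outside cluster 1 Fras1 and Tshz2 stood at -0.62 and -0.38. The classes were spread differently over the clusters, as cluster 1 held 35 of the 92 members and 1154 of the 24458 receptor-negative nuclei. With both classes held inside cluster 1, 122 of the 430 genes were also called, and Nxph1 was not.

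Across the 3 comparisons, 11 genes were higher in each, namely Nxph1, Dgkk, Asb4, Fras1, Pcsk5, Trpc6, Cmpk1, the ryanodine receptor gene Ryr3, the GTPase-activating protein gene Arhgap6, Tcerg1l and 1700016P03Rik. They were 23.4%, 34.4% and 13.3% of the genes higher against nuclei with Calcr alone, with Pth2r alone and with neither. Lower in each were 40 genes, among them Grm7, Htr2c, Oprm1, Kcnc2, Kcnip4, Bcl11b, Erbb4, Cntn3 and Robo2.

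**Figure D4:**
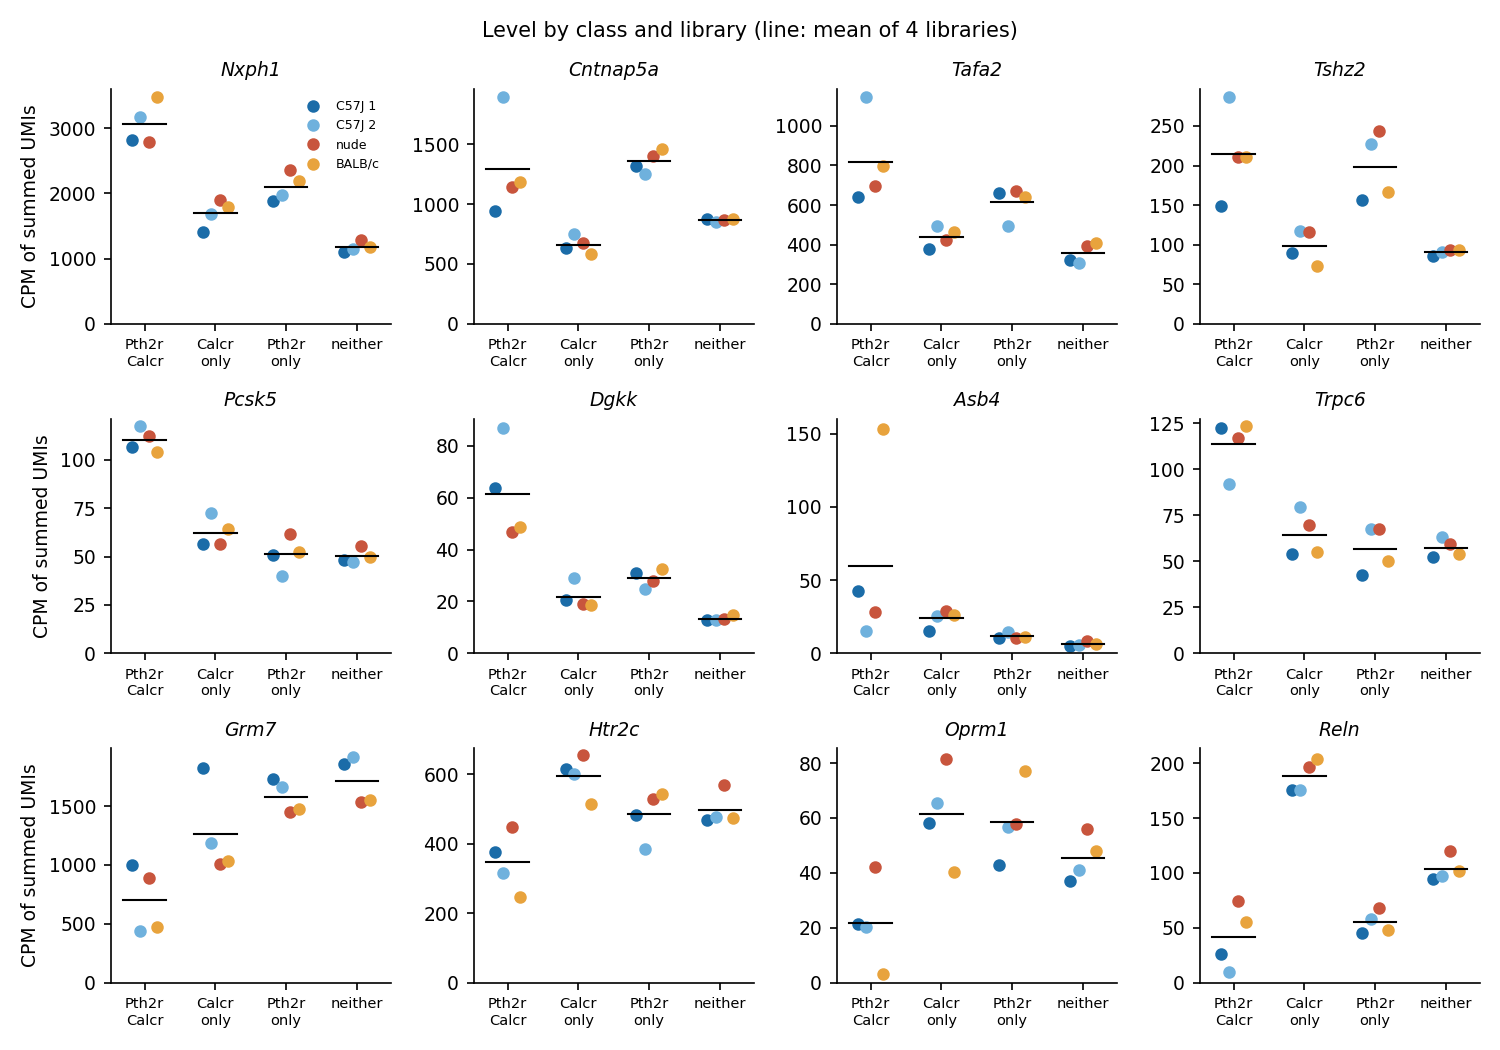
Level (y axis, CPM of summed UMIs) of 12 genes in the Pth2r Calcr nuclei and in nuclei with Calcr alone, with Pth2r alone and with neither receptor (x axis), with 1 point per library and a line at the mean of 4 libraries. Nxph1 lies between 2791 and 3483 CPM in the Pth2r Calcr nuclei, above every point of the other classes, while inside cluster 1 alone its levels in the members and in nuclei with Calcr alone overlapped.

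Ligands of the selected receptors were not found in the members. Pth2, Pth, Pthlh, Calca, Calcb, Iapp, Adm and Adm2 had 0 UMIs in the 92 nuclei, which allows up to 3.31 CPM for each. Of the receptor partners, Ramp1 had 4 UMIs in 4 nuclei, and Ramp2 and Ramp3 had 0. Among other class B receptors, Adcyap1r1, the receptor of the peptide PACAP, measured 133, 56.2, 122 and 84.6 CPM and was in 53 nuclei. Glp1r, the receptor of glucagon-like peptide 1, had 9 UMIs in 8 nuclei, Crhr2 had 13 in 9, and Pth1r, Vipr1 and Vipr2 had 0. EdgeR called 0 of 5, 5 and 10 class B receptors outside the rule against nuclei with Calcr alone, with Pth2r alone and with neither. Of these receptors 0, 1 and 3 had an unadjusted p under 0.05. Over all genes 1.25%, 1.45% and 2.64% were called, so with so few tested the lack of calls does not set these receptors apart.

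Activin and BMP receptors bind ligands of the TGF-beta family and signal through Smad proteins. Acvr1 (GRCm38 chromosome 2, 58388644 to 58567157, minus strand) measured 149, 163, 168 and 120.3 CPM in the members, and was in 63 of the 92 nuclei. Its log2 fold change was 0.45 ± 0.17 against nuclei with Calcr alone, 0.51 ± 0.15 with Pth2r alone and 0.35 ± 0.15 with neither, none of which passed the test (adjusted p = 0.288, 0.115 and 0.277). The type II receptor gene Acvr2a was lower against nuclei with Calcr alone (-0.83 ± 0.21, adjusted p = 0.0369) and with neither (-0.94 ± 0.21, adjusted p = 0.00036). Of the pathway's genes, 0 were called higher and 1 lower of 24 tested, 1 higher and 1 lower of 25, and 1 higher and 3 lower of 34, in the same order of classes, where 1.25%, 1.45% and 2.64% of all genes were called. The follistatin-like gene Fstl4 rose and Fstl5 fell against nuclei with Pth2r alone (0.70 and -0.67) and with neither (0.86 and -0.57).

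Of the metabotropic glutamate receptors, which tune transmitter release and excitability through G proteins, Grm7 was lower in the members in each comparison. Grm7 measured 1000.3, 439, 888 and 475 CPM in the members, against 1006 to 1824 CPM with Calcr alone (-0.86 ± 0.13), 1453 to 1731 CPM with Pth2r alone (-1.25 ± 0.14) and 1530 to 1918 CPM with neither (-1.46 ± 0.11), and passed the test in each (adjusted p = 0.000105, 8.75913e-06 and 2.03027e-38). Members of C57J 1 and nude were higher than those of C57J 2 and BALB/c, and none reached the lowest point of the other classes. Among the members, pooled Grm7 was lower inside cluster 1 than outside it, as given above. Against receptor-negative nuclei, 5 of 8 metabotropic glutamate and cannabinoid receptors fell (2.13% of all genes did), among them Grm7, Grm3 (-0.76), Grm4 (-1.48) and the cannabinoid receptor gene Cnr1 (-0.93), while Grm8 rose (0.53). The median over the group was -1.001, or -0.85 with Grm2, which had 0 UMIs in the members, at its bound, against -0.13 over all genes. Against nuclei with Calcr alone Grm3 and Grm7 fell of 7 tested, and with Pth2r alone 2 of 7 fell, with Grm7 among them, where 0.75% and 1.13% of all genes fell.

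Other receptor and channel groups were counted in the same way, where 1.25%, 1.45% and 2.64% of all genes were called against nuclei with Calcr alone, with Pth2r alone and with neither. Of the neuropeptide receptor genes 1 of 5, 2 of 8 and 1 of 25 tested were called, all of them lower. Oprm1 fell in all 3 comparisons, and Tacr1, the substance P receptor gene, fell against nuclei with Pth2r alone (-2.34 ± 0.43), with 7 UMIs in 3 members. Of the monoamine receptor genes 1 of 8, 2 of 11 and 3 of 19 tested were called, all of them lower. Htr2c, the serotonin 2C receptor gene, fell in each (-0.78, -0.53 and -0.66), and Adra1a fell against nuclei with Pth2r alone (-1.33), while Htr1f (-0.70) and Drd3 were lower than in receptor-negative nuclei. Drd3 had 2 UMIs in all members together. The NMDA receptor gene Grin2a rose against nuclei with Calcr alone (0.50 ± 0.12, adjusted p = 0.0153), and was the only call among the ionotropic glutamate receptors in the 3 comparisons, which tested 16, 17 and 18 of them. None of the GABA-A receptor subunit genes was called by edgeR among 11, 11 and 14 tested, of which 1, 2 and 5 had an unadjusted p under 0.05, with median log2 fold changes of 0.03, -0.02 and 0.02. Of 25 potassium channel genes 2, 3 and 4 fell, where 0.75%, 1.13% and 2.13% of all genes fell. Kcnc2 and Kcnip4 fell in each comparison, Kcnh7 against nuclei with Pth2r alone and with neither, and Kcnd3 against those with neither. The list of neuropeptide genes, which also held the neurexin ligand gene Nxph1, had 11, 11 and 20 genes tested. Nxph1 rose in each comparison and no other gene of the list rose. Sst, the somatostatin gene, fell against receptor-negative nuclei (-1.03 ± 0.32, adjusted p = 0.0466), with 18 UMIs in 13 members.

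Some transcription factors that pattern the septum and striatum were called in each comparison. Tshz2 and Zfhx3 rose and Bcl11b, Etv1, Foxp2, Meis2, Nfia, Nfib and Nfix fell of 28 tested against nuclei with Calcr alone, with a median of -0.23 against 0.00 over all genes. Of 33 tested with Pth2r alone 3 fell, Bcl11b and Etv1 among them, and 9 of 38 fell and Tshz2 rose against receptor-negative nuclei. Etv1 had 2 UMIs in the members. Of 20 markers of other LS neuron classes, 3, 4 and 9 fell in the 3 comparisons and Vwa5b1 rose against receptor-negative nuclei (1.15 ± 0.30), with medians of -0.33, 0.22 and -0.80, where 0.75%, 1.13% and 2.13% of all genes fell. Among Acvr1, Grm7, Glp1r, Ndrg4, Synpo, Tafa2 and Ndn, Tafa2 rose in 2 comparisons and Grm7 fell in 3, and Ndrg4 fell against receptor-negative nuclei (-0.51 ± 0.15, adjusted p = 0.0311). Synpo, Ndn and Glp1r were not called in any.

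Inside cluster 1 the members could be compared with other nuclei of the same cluster, a comparison added after the data were seen. The 35 members had 313772 UMIs in all, and the cluster also held 104 nuclei with Calcr alone, 310 with Pth2r alone and 1154 receptor-negative Trpc4 nuclei. Against these, 30 of 2335 (1.28%), 127 of 4527 (2.81%) and 252 of 9083 (2.77%) genes were called. Of the genes called over all clusters, 9 of the 117, 44 of the 143 and 122 of the 430 were among them. The levels of Nxph1 overlapped with those in nuclei with Calcr alone there, at 4516, 4474, 4485 and 5324 CPM in the members and 4417, 4154, 4308 and 5244 CPM in those nuclei (0.05 ± 0.09, adjusted p = 0.954), and it was not called against the other classes (-0.06 ± 0.11 and 0.27 ± 0.13, adjusted p = 0.906 and 0.414). Of the 9 of the 15 genes named against nuclei with Calcr alone that could be tested there, Tshz2, Hs6st3 and Cntnap5a were called, and Dgkk, Synpr and Tafa2 had log2 fold changes of 0.90, 1.00 and 0.22 (adjusted p = 0.196, 0.0894 and 0.648). Tshz2 was higher than in nuclei with Calcr alone (1.45 ± 0.22, adjusted p = 0.000307) and with neither (1.90 ± 0.19), at 378, 432, 574 and 499 CPM against 132 to 240.0 and 96.9 to 128 CPM. It did not overlap between the classes in either comparison. The synaptic vesicle protein gene Sv2c measured 113, 177, 186 and 254 CPM against 42.3 to 77.0 CPM with Pth2r alone (1.76 ± 0.29, adjusted p = 0.00031). Other rises against nuclei with Pth2r alone were Tll1 (1.89), Stxbp6 (1.64), Cntnap5c (1.64), Pcsk5 (1.56), Prr16 (1.56), Ntng1 (1.39), Eda (1.35), Tox (1.23) and Zmat4 (1.23). Against nuclei with Calcr alone, Pcdh7 (0.83), Grin2a (0.81), Slit2 (0.80), Sorcs3 (0.74) and Cntnap5a (0.58) rose. Sorcs3, a sortilin-family receptor gene, was the only gene higher in all 3 comparisons inside the cluster.

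Drd3, which is among the leading genes of cluster 1, was not detected in its Pth2r Calcr members. It had 0 UMIs in the 35 members and 65.0 to 86.6 CPM in the receptor-negative nuclei of the cluster, so it was at least 8.27-fold lower, taking 3 counts over the group as the floor (9.56 CPM). Drd3 was also low in the other nuclei of the cluster with a receptor, at a mean of 16.7 CPM with Calcr alone and 19.0 CPM with Pth2r alone. Cpne4, which encodes a calcium-dependent membrane-binding protein, also had 0 UMIs in the members, at least 10.1-fold lower than in receptor-negative nuclei and at least 5.90-fold lower than in nuclei with Pth2r alone. The axonal adhesion gene Cntn3 was lower than in all 3 classes, at 56.7, 155, 62.1 and 9.42 CPM against 136 to 325 CPM with Calcr alone (-1.72 ± 0.32, adjusted p = 0.00244), overlapping only at C57J 2. Thus 13 genes were lower in all 3 comparisons, among them Erbb4, Robo1, Grik1 and Sema6d. Without BALB/c, 10 genes were called against nuclei with Pth2r alone, and without C57J 1 67 were. Without C57J 1 there were 165 calls against receptor-negative nuclei, and by DESeq2 there were 6, 67 and 127 calls in the 3 comparisons.

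**Figure D5:**
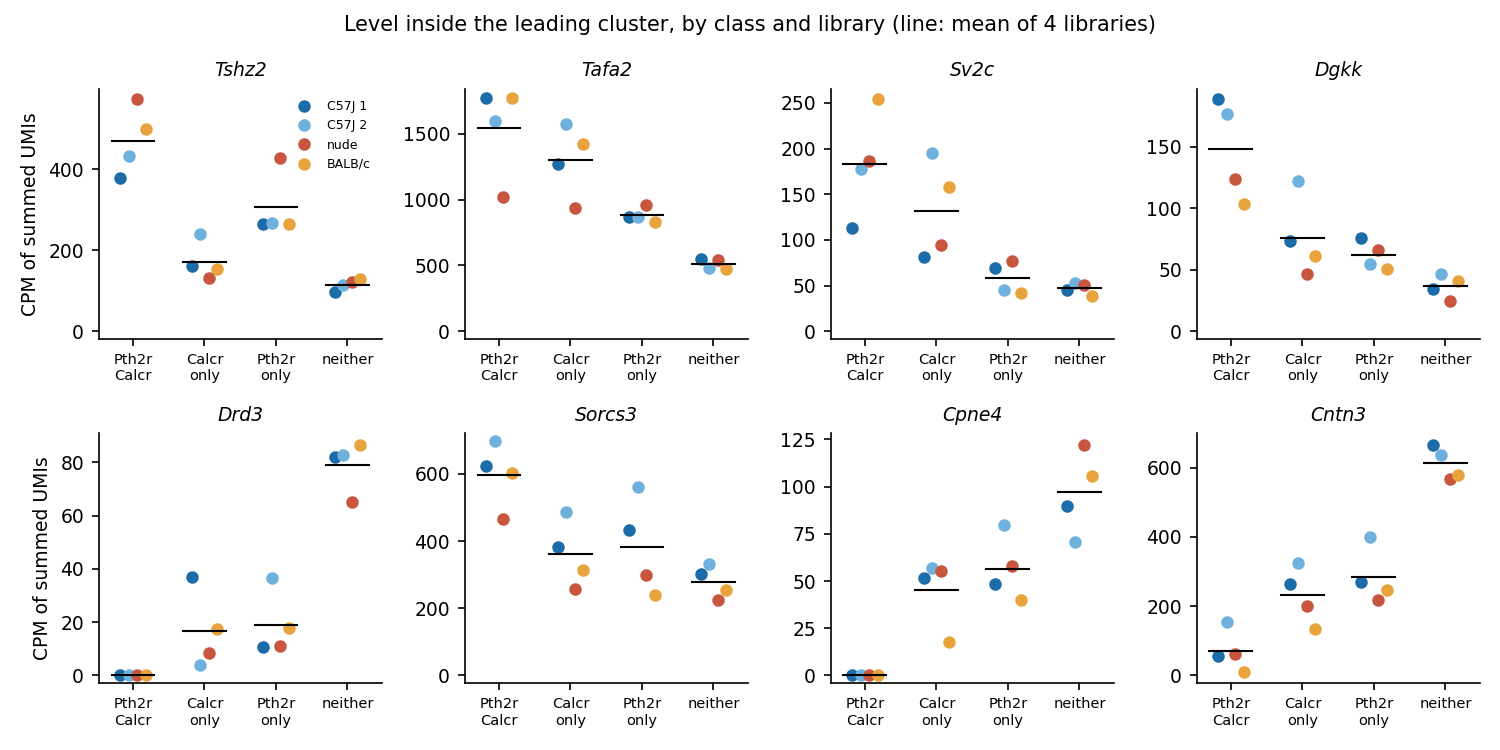
Level (y axis, CPM of summed UMIs) of 8 genes in nuclei of cluster 1 only, for the Pth2r Calcr nuclei and the nuclei with Calcr alone, with Pth2r alone and with neither receptor (x axis), with 1 point per library and a line at the mean. Drd3 and Cpne4 are at 0 in the Pth2r Calcr nuclei of all 4 libraries, and Tshz2 lies between 378 and 574 CPM.

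Last, the members were compared between backgrounds, 2 C57J libraries against nude and BALB/c. None of 3858 genes was called (0%) by edgeR or by DESeq2, the smallest adjusted p was 0.228, and 222 genes had an unadjusted p under 0.05. In the far more numerous receptor-negative nuclei, 345 of 19446 genes (1.77%) were called for the same contrast, 142 higher and 203 lower in nude and BALB/c. When 1 library was left out, 14 to 34 genes were called. By size of p the leading genes, named after their values were seen, were Cfap54 and Ulk4. Cfap54, a cilium gene, measured 117, 71.5, 351 and 335 CPM in C57J 1, C57J 2, nude and BALB/c (1.85 ± 0.28, adjusted p = 0.228). Ulk4, a kinase-like gene, measured 181, 179, 37.4 and 52.0 CPM (-1.98 ± 0.31, adjusted p = 0.228). Kcnh7, a voltage-gated potassium channel gene, measured 479, 470.0, 234 and 231 CPM (-1.04 ± 0.20, adjusted p = 0.450). The backgrounds did not overlap for these 3 genes, but they were picked for their small p, so this separation is no support. None passed the correction. Acvr1, Grm7, Tafa2 and Ndrg4 stood at -0.15 ± 0.28, -0.10 ± 0.39, -0.27 ± 0.26 and -0.54 ± 0.31 (adjusted p = 0.982, 0.997, 0.954 and 0.869). For Grm7, Meis2 and Foxp2 the 2 C57J libraries differed by more than the backgrounds did, and Meis2 measured 537, 138, 495 and 104 CPM. Whether the background difference in the members departed from that in receptor-negative nuclei was tested as an interaction over 17401 genes. This fit had no library block, although both classes came from the same libraries. EdgeR called 0 genes (0%) and 705 had an unadjusted p under 0.05, while DESeq2 called 2.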

How the data were processed

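Frozen LS tissue gave the nuclei for the 10x Genomics 3' libraries, 1 per group except C57J, which had 2. The authors deposited, per library, a matrix of UMI counts per gene and nucleus, made with Cell Ranger 7.0.1 on mm10 per the submitters' processing notes. The study removed predicted doublets before its integration of the libraries, but its doublet calls were not used here. Doublets were scored here from simulated pairs of nuclei and kept, with their removal as an alternative. The 92 members, the gene lists and the tests were chosen with earlier results of these data known.

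Raw counts were summed per library and class, leaving the library, not the nucleus, as the unit. Sums were tested with edgeR 4.0.16 (quasi-likelihood, TMM, filterByExpr) in R 4.3.3, with DESeq2 1.42.0 as an alternative, and p-values were adjusted over all tested genes by the Benjamini-Hochberg method. The 6 rule genes were left out of every test. Class comparisons held the library as a block, since members and comparators came from the same 4 libraries. The interaction fit had no such block. Calls needed both a log2 fold change of more than 0.5 in either direction and an adjusted p under 0.05. Genes named in a class comparison were the 10 largest rises and 5 largest falls that moved the same way in every library with at least 50 CPM in the higher class, without predicted genes, and listed genes that were called or most abundant. Some genes that this rule names are not reported here. Clusters came from Leiden clustering (resolution 2) of 2000 variable genes and 40 components with 6 neighbours per library, after 245 genes that differ between the backgrounds were left out. Thinned values drew 2000 UMIs per nucleus. The edgeR fits of the background, class and interaction comparisons were tested on simulated counts. Gene positions are from the GENCODE annotation of GRCm38. The summed counts of the members hold 905090 UMIs, which limits precision. The p-values rest on sums of pooled libraries, with a dispersion estimated in large part across genes. They thus do not measure the spread of each gene between libraries alone, and they do not measure spread between animals.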

Additional observations from a re-analysis of the deposited data

How the results depend on the processing

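Directions of the named genes held in most alternatives, whereas the numbers of calls depended on them. Calls against nuclei with Calcr alone (117) were 66 by DESeq2, 45 thinned, 48 with no replicate block, and 56 to 119 with 1 library left out; against nuclei with Pth2r alone (143) they were 94, 86, 78 and 55 to 167, and 235 without the filter; against receptor-negative nuclei (430) they were 204, 243, 206 and 241 to 394. The libraries whose omission moved a count most were C57J 1 and BALB/c. Settings added after seeing the data split the members by cluster 1, which was drawn from the same genes, so these counts describe the split: members outside it gave 36 (Calcr alone), 137 (Pth2r alone) and 279 (neither) calls, members inside it 425, 427 and 561, and both classes within it 30, 127 and 252, of which 9, 44 and 122 were among the 117, 143 and 430. For members outside it, Dgkk (-0.45), Tshz2 (-0.30), Synpr (-0.14), Lypd1 (-1.04) and Tafa2 (-0.072) reversed against Calcr alone, Dgkk (-0.98) and Fstl4 (-0.61) against Pth2r alone, and Fras1 (-0.62) and Tshz2 (-0.38) against neither; for members inside it, Trpc6 (-0.69) reversed against Pth2r alone. The cause was not tested. Of the 15 genes named against Calcr alone, 2 kept direction and call for members outside cluster 1 and 8 kept direction without the call. Of 524 values of named genes under alternatives, 412 kept direction and call, 102 kept direction without the call and 10 reversed.

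Calls between backgrounds (0) were 15 without the filter, 5 without predicted doublets and 14 to 34 with 1 library left out, where a lone library is assumed to vary like the other group. They were 0 by DESeq2, thinned or with Trpc4 required. Interaction calls (0) were 2 by DESeq2, 6 without the filter, and 0 to 0 with 1 library left out. The log2 ratio of thinned shares ran from 0.52 to 2.97 for nude and from -0.086, a reversal without C57J 1, to 2.37 for BALB/c, with a spread of 1.74 (SD of the log2 shares of 2 C57J libraries). With Trpc4 required of the members and the denominator nuclei alike it was 2.06 and 2.32. This setting also took the thinned members from 4 to 1 in C57J 2 and from 7 to 5 in nude. The move of the ratio thus cannot be put down to the denominator alone. With at least 2 UMIs of each receptor no ratio of thinned shares could be had, since both C57J libraries were at 0, and the background fit was not run, since nude held no such nucleus. No paired analysis was possible between backgrounds because nude and BALB/c have 1 library each and only C57J 2 shares their batch.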
